A study of Mus musculus with 223 samples.

Results

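The clustered protocadherins of the mouse were followed in single interneurons (INs) of the developing cortex. They were taken as all genes whose symbol starts with Pcdha, Pcdhb or Pcdhg and goes on with a digit, or with a, b or c and a digit, and 58 of the 43629 genes in the table met this rule. They comprise 12 alpha genes, 22 beta genes, 12 gamma a genes, 7 gamma b genes and the 5 C-type genes Pcdhac1, Pcdhac2, Pcdhgc3, Pcdhgc4 and Pcdhgc5. With its letters read strictly the rule leaves out the gamma b genes and keeps 51 members. All 58 lie on the plus strand of chromosome 18 of GRCm38, between 36930184 and 37841873, in the order alpha, beta and gamma. The reference gives the name Pcdha11 to 2 of the identifiers, which are therefore called ENSMUSG00000007440 and ENSMUSG00000102206 here.

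The cells were Htr3a-GFP+ INs from transgenic mice of a C57BL/6 background, in which eGFP is driven by Htr3a regulatory sequences and marks mostly INs born in the caudal ganglionic eminence. Whole cortices of both sexes were pooled over several animals, dissociated and sorted by FACS, and cells were caught one by one on microfluidic chips, whose sites the authors inspected under a microscope, and read as paired ends with no molecular identifiers. The table holds 82 cells at E18, during invasion of the cortex, 66 at P2, during laminar positioning, and 75 at P5, during early circuit integration. The authors assigned 22, 31 and 13 of the P2 cells and 34, 19 and 22 of the P5 cells to types 1, 2 and 3, from these same counts, while E18 cells carry no type. E18 and P2 tissue was digested warm and P5 tissue at room temperature, so the step to P5 cannot be told apart from the change of protocol. Each age was also caught on chips of its own, so age and chip cannot be told apart.

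Clustered protocadherins are homophilic cell adhesion proteins of neurons. Each alpha and gamma gene has a variable first exon of its own, with its own promoter, that is spliced to constant exons shared by its cluster, whereas each beta gene is a single exon. A neuron uses a few of the variable promoters, a choice that involves DNA methylation and looping by CTCF and cohesin, and the resulting combination of isoforms is known to let branches of a neuron recognise and avoid each other. The C-type genes sit at the ends of the alpha and gamma clusters and are known to be regulated apart from the others.

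Not every member could be counted equally well. In the exon models the beta genes were free of other annotated genes over a median of 100% of their bases, while the alpha genes were free over 45.7%, gamma a over 53.8%, gamma b over 54.8% and C-type over 51.4%, since constant exons belong to every gene of a cluster. Reads of the alpha and gamma genes therefore come from the variable exons if reads shared between genes were dropped, which the methods do not state. The annotated genes Gm42416, Gm37013, Gm37388 and Gm38182 share exons with many members and have 0 free bases, and they had no read pair in any cell. Cross-matching was small among the beta genes: a median of 95.5% of their 50-base stretches occurred in no transcript of another gene. Pcdha4, with 404 free bases, and Pcdhga10, with 0 once antisense genes are counted, had no read pair in any cell, so their level was not measurable here. Pcdha1 and Pcdhb1 had no read pair either, with 2489 and 2588 free bases, and a count of 0 over all cells allows a share above 10 RPM of up to 1.35% by 3 counts of the total (1.64% by the exact interval).

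Depth did not differ much between the ages. Cells had between 3707601 and 15840130 mapped read pairs, with medians of 9558194 (E18), 9640275 (P2) and 8931263 (P5). Type 3 INs were the shallowest of each age. The medians of types 1 to 3 were 9794347, 9750219 and 6483871 at P2 and 9808331, 9114966 and 7879973 at P5. RPM scales the read pairs of a gene to all mapped read pairs of the cell, and the share of these that fell on genes was lowest in P5 type 3 INs, at a median of 32.1%, followed by P2 type 3 INs at 44.4%, and was 49.9% to 58.6% in the other groups. At least 1 of the 6 interneuron markers Gad1, Gad2, Dlx1, Dlx2, Dlx5 and Dlx6 was above 10 RPM in 78 of 82 E18 cells, 21 of 22, 29 of 31 and 12 of 13 cells of P2 types 1 to 3, and every P5 cell. At least 3 of 6 excitatory neuron markers passed 10 RPM in 12 E18 cells and in 0 postnatal cells, and at least 3 of 8 astrocyte markers did so in 4 of 19 P5 type 2 INs and in 4 other cells. The summed excitatory markers reached 2323 RPM at E18, and the summed astrocyte markers 18536 RPM in P5 type 2. Cells carry labels of 4 library sets, here A to D, of unstated meaning. Set A is P2 and nothing else, which leaves age and set inseparable there (they cannot be told apart), and the 3 other sets mix E18 with P5, on different chips. Each age is 1 pool without animal labels, so cells are not replicates and no test was made, and all intervals are 95% intervals of counting error only.

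Most Htr3a-GFP+ INs had few clustered protocadherins above 10 RPM, the level at which a cell is taken to express a gene. Over all cells the number per cell ranged from 0 to 7 with a median of 1 and a mean of 1.58 ± 1.44 (SD over cells). None was above 10 RPM in 52 cells, exactly 1 in 81, at least 2 in 90 and at least 4 in 26. Nearly all of the family was in use across the population, since 54 of the 58 members passed 10 RPM in some cell, 43 of them at E18, 38 at P2 and 45 at P5.

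The mean number of members per cell was lowest in P2 type 3 INs and highest in P5 type 3 INs. E18 cells ranged from 0 to 7 with a median of 1 and a mean of 1.30 ± 1.31 (SD, 82 cells). At P2 the mean was 1.82 ± 1.44 in type 1 INs, 1.58 ± 1.39 in type 2 and 1.15 ± 1.07 in type 3, each with a median of 1. At P5 it was 1.38 ± 1.18 in type 1 INs with a median of 1, 2.05 ± 1.61 in type 2 and 2.50 ± 1.92 in type 3, each of the latter with a median of 2. All groups started at 0 and overlapped over most of their range, and the differences between the means were smaller than the SD within most groups.

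**Figure D1:**
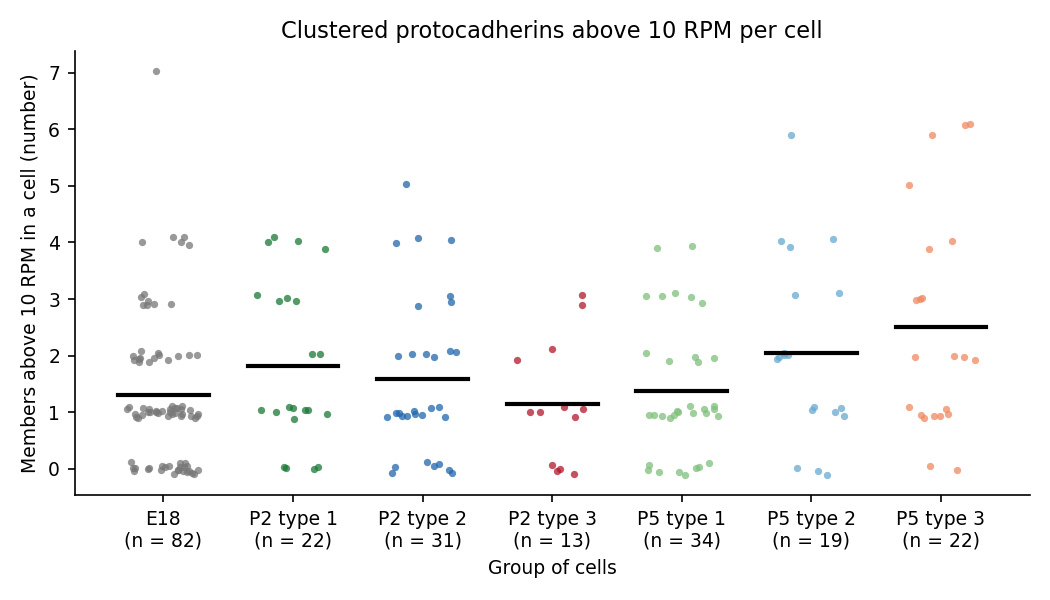
Number of clustered protocadherins above 10 RPM (vertical axis) in each cell (points, jittered) of the 7 groups, with the mean of the group as a line. Means run from 1.15 in P2 type 3 to 2.50 in P5 type 3, and cells with 0 members occur in every group.

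Within the library sets shared by E18 and P5, the mean was higher at P5 in sets B (1.02 at E18 and 1.47 at P5) and D (1.44 and 2.07), and lower in set C (2.44 in 9 E18 cells and 1.76 in 17 P5 cells). P5 type 3 INs had a mean of 3.5, 3.67 and 2.18 in sets B, C and D, against 1.5, 2.00 and 2.14 in type 2 and 1.09, 1.18 and 1.83 in type 1 INs. Sets B and C hold only 2 and 3 cells of each of types 2 and 3, and in set D types 2 and 3 were level. The number of members and the number of genes above 10 RPM, which share a cell's library, had a weak Pearson correlation, 0.21 over all cells and 0.31, 0.23 and 0.27 over the 82, 66 and 75 cells of E18, P2 and P5. P5 type 3 INs, with the highest mean, had a median of 2102 genes above 10 RPM, below the 2738 of type 2 and the 2258 of type 1. Per 1000 genes above 10 RPM there were 1.20 clustered protocadherins in P5 type 3 INs, 0.711 in type 2, 0.597 in type 1 and 0.502 at E18. In P2 types 1 to 3 there were 0.972, 0.680 and 0.827. Without the members Pcdhga12 and Pcdhb22, P5 type 3 INs had 0.810 and P2 type 1 INs 0.802. With read pairs on genes as library size, the mean was 3.55 in P5 type 3 INs and 1.87 at E18, which was then the lowest group. The 12 E18 cells with excitatory markers had a mean of 1.92 members against 1.20 in the other 70, and the 2 P5 type 3 INs with astrocyte markers 0.50 against 2.70 in the other 20, and the part of these cells was not tested.

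A pair of members, Pcdhga12 and Pcdhb22, behaved unlike the rest. Pcdhga12, the last gamma a gene (37765580 to 37841873), had read pairs in every cell at 0.652 to 573 RPM with a median of 5.61, and 48 cells passed 10 RPM. Pcdhb22, the last beta gene (37517871 to 37524479), had read pairs in 200 cells with a median of 2.17 RPM over all cells and a highest value of 581, and 42 cells passed 10 RPM. These levels spread around the threshold: of the 48 cells with Pcdhga12 above 10 RPM, 40 lay at 50 RPM or less. Together the pair gave 13.6% and 11.9% of all 352 cases of a member above 10 RPM in a cell.

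The remaining 56 members were mostly unread, with a few high values. In 91.4% of their 12488 pairs of a member and a cell there was no read pair at all. Of the 1072 with a read pair 262 were above 10 RPM and 555 below 1 RPM, and the values above 100 RPM held 82.6% of these members' reads. Pcdhb7 passed 10 RPM in 12 cells with a median of 128.8 RPM among them, Pcdhb17 in 18 cells with a median of 127.7, Pcdhga7 in 12 with a median of 106.98 and Pcdha8 in 5 with a median of 310. These medians are of cells past the threshold, and over the cells with any read pair they were 0.731 RPM for Pcdhb7 (35 cells), 3.68 for Pcdhb17 (40), 10.04 for Pcdhga7 (24) and 1.89 for Pcdha8 (11). The highest values were 1522 RPM for Pcdhb14 in a P2 type 1 IN and 1445 RPM for Pcdhb7 in an E18 cell. Only 5 members had read pairs in 45 cells or more: Pcdhga12, Pcdhb22, Pcdhb14 in 170 cells, Pcdhgb4, and Pcdhb5 in 74 cells, the last 3 mostly below 1 RPM with medians of 0.334, 0.538 and 0.537 in cells with reads.

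**Figure D2:**
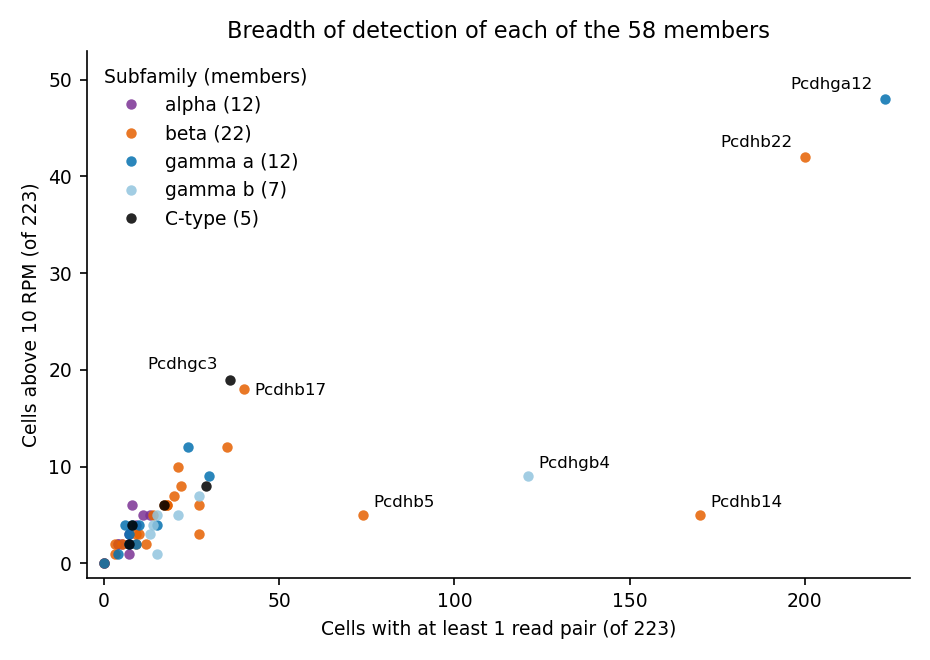
Cells with at least 1 read pair (horizontal axis) against cells above 10 RPM (vertical axis) for each of the 58 members, coloured by subfamily, over all cells. Pcdhga12 (every cell, and 48 above 10 RPM) and Pcdhb22 (200 and 42) stand alone, and 53 members lie below 45 cells with a read pair.

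Without Pcdhga12 and Pcdhb22, a choice made after their values were seen, the mean number per cell was 1.10 at E18, 1.5, 1.23 and 0.308 in P2 types 1 to 3 and 0.912, 1.53 and 1.68 in P5 types 1 to 3. No member was then above 10 RPM in 10 of 13 P2 type 3 and 17 of 34 P5 type 1 INs. P2 type 3 INs thus owed most of their count to this pair. They used 6 members in all, against 27 in P2 type 1 and 27 in P2 type 2 INs, in 13 cells against 22 and 31 and with the lowest number of genes above 10 RPM, a median of 1437.

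The share of the leading isoform in the clustered protocadherin reads of a cell varied widely. Among the 90 cells with at least 2 members above 10 RPM, the leading member took 28.9% to 96.2% of the summed RPM of the family, with a median of 62.8%. The median was 65.7% at E18, 71.7% at P2 and 54.02% at P5. All 58 members together gave a median of 63.7 RPM per E18 cell (3.42 to 1597), 75.1 per P2 cell (1.51 to 1631) and 66.7 per P5 cell (4.01 to 855). By type the sum had a median of 170.7, 82.8 and 31.1 in P2 types 1 to 3 and of 30.3, 309 and 136.2 in P5 types 1 to 3, with ranges that overlapped throughout.

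Combinations of 2 or more members were seldom shared between cells, while single members often were. Of the cells with any member above 10 RPM, 60.2% had a set that no other cell had. Among the 90 cells with at least 2 members this held for 81 (90%). The most common sets were single members: Pcdhga12 alone in 18 cells, Pcdhb22 alone in 10 and Pcdhgc3 alone in 7. The shared sets of more than 1 member were Pcdhb22 with Pcdhga12 in 3 cells and Pcdhb22 with Pcdhga7, Pcdhb17 with Pcdhgc3 and Pcdhb17 with Pcdhga12 in 2 cells each.

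Sharing of members within a type rested largely on Pcdhga12 and Pcdhb22. At P2, a member in common was found in 12.4% of the type 1 pairs, 14.9% of the type 2 pairs and 61.1% of the type 3 pairs of cells with any member, against 18.1% of pairs across types. At P5, it was found in 18.5%, 26.7% and 46.3% of the pairs of types 1 to 3, against 29.1% of pairs across types. Without Pcdhga12 and Pcdhb22 these shares were 3.68%, 14.3% and 13.3%, against 10.8% across types. At P2 they were 7.50% of type 1 pairs, 7.79% of type 2 pairs and 0 of the 3 type 3 pairs left, against 7.30% across types. E18 pairs shared a member in 10.6% of cases, and in 8.45% without the 2 genes. Pairs of cells are not independent, and the differences were not tested.

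**Figure D3:**
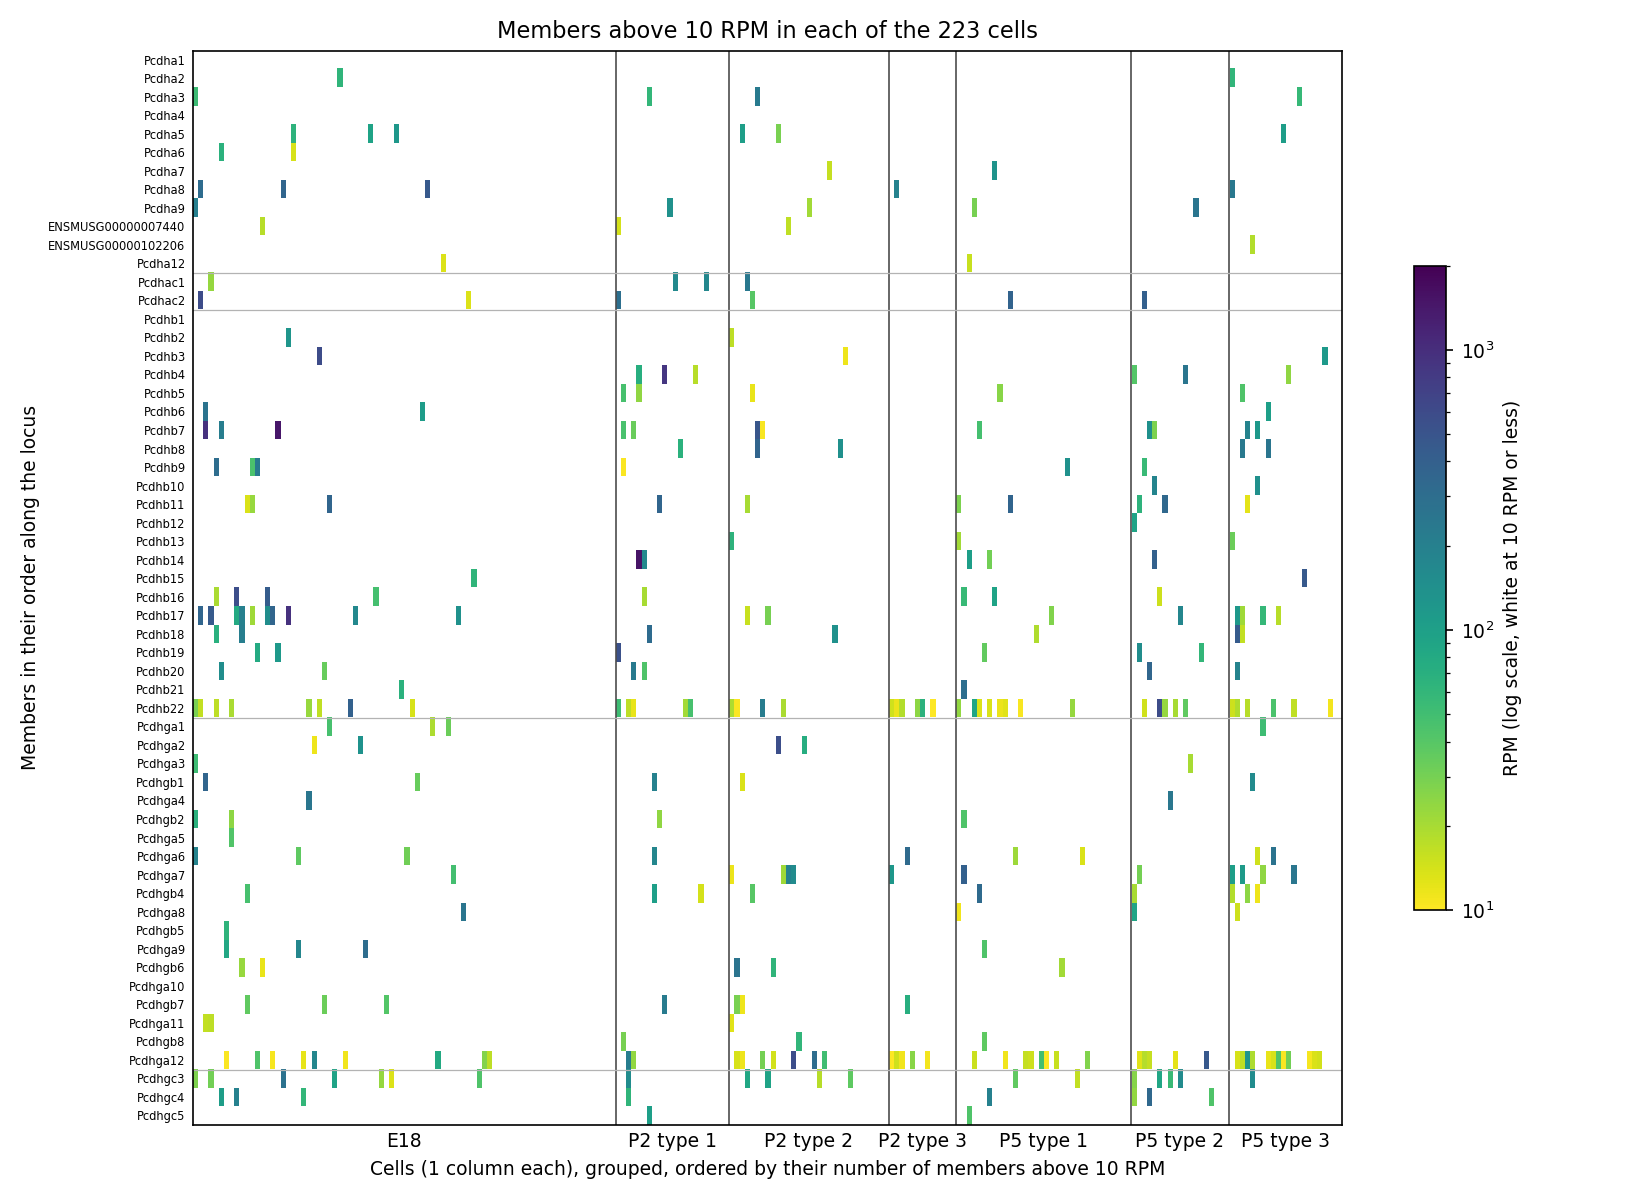
Members above 10 RPM (rows, in their order along the locus, lines between clusters) in each cell (columns, grouped and ordered by their number of members), coloured by RPM on a log scale and white at 10 RPM or less. Most rows hold a few dark marks, while Pcdhb22 and Pcdhga12 form the 2 densest rows, mostly at low RPM.

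Members of the same subfamily were rarely used together, whether they were neighbours along the locus or further apart. With each pair counted in both orders, a cell with a member above 10 RPM also had the next member of its subfamily in 20 of 522 cases (3.83%) and a member further away in 3.82% of 4291 cases. At E18 the shares were 6.06% (10 cases) and 3.38%, at P2 3.97% and 3.57%, and at P5 1.94% (4 cases) and 4.30%. Without Pcdhga12 and Pcdhb22 they were 4.68% (20 cases) and 3.41% over all cells, 6.90% and 2.97% at E18, 4.96% and 3.72% at P2 and 2.48% and 3.57% at P5. The order differed between the ages and the counts of neighbours are small.

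The 22 beta genes made up the largest share of the family's use, 43.8% of the 352 cases of a member above 10 RPM, with 7.00 cases per beta gene, 7.75 per gamma a, 4.86 per gamma b, 2.67 per alpha and 7.80 per C-type gene. Without Pcdhga12 and Pcdhb22 there were 5.33 cases per beta and 4.09 per gamma a gene, so the order of these subfamilies rests on the pair. A beta gene passed 10 RPM in 99 cells (44.4%, 37.8% to 51.2%, exact binomial interval), in 34.1% of E18 cells (24.03% to 45.4%), 45.5% at P2 and 54.7% at P5 (42.7% to 66.2%). By type the share was 59.1%, 35.5% and 46.2% in P2 types 1 to 3 and 47.1%, 57.9% and 63.6% in P5 types 1 to 3. The beta genes held 54.9% of the reads of the family. They also had the most bases free of other genes, a median of 3714. It was 2409 for alpha, 2567.5 for gamma a, 2622 for gamma b and 3028 for C-type genes. Reads and cases were not scaled for this and do not rank the subfamilies by level. Without Pcdhb22 the share of cells with a beta gene was 28.05% at E18 (18.7% to 39.1%), 28.8% at P2 and 44% at P5 (32.5% to 55.9%), so P2 was then close to E18. By type it was 45.5%, 29.0% and 0% in P2 types 1 to 3, where every type 3 IN with a beta gene had Pcdhb22, and 35.3%, 52.6% and 50% in P5 types 1 to 3. A gamma a gene passed in 28.0% of E18 cells (18.7% to 39.1%), 31.8% at P2 and 49.3% at P5 (37.6% to 61.1%), and in 72.7% of P5 type 3 INs (49.8% to 89.3%), whose interval lies above that of E18 cells and of P2 type 1 INs (13.6%, 2.91% to 34.9%). The intervals of the remaining groups overlapped those of P5 type 3 INs. Without Pcdhga12 the share with a gamma a gene was 19.5% at E18 (11.6% to 29.7%), 13.6% at P2 and 21.3% at P5 (12.7% to 32.3%), so E18 and P5 were then close. It was 31.8% in P5 type 3 INs (13.9% to 54.9%), an interval that overlapped those of E18 and of P2 type 1 INs (4.55%, 0.115% to 22.8%).

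**Figure D4:**
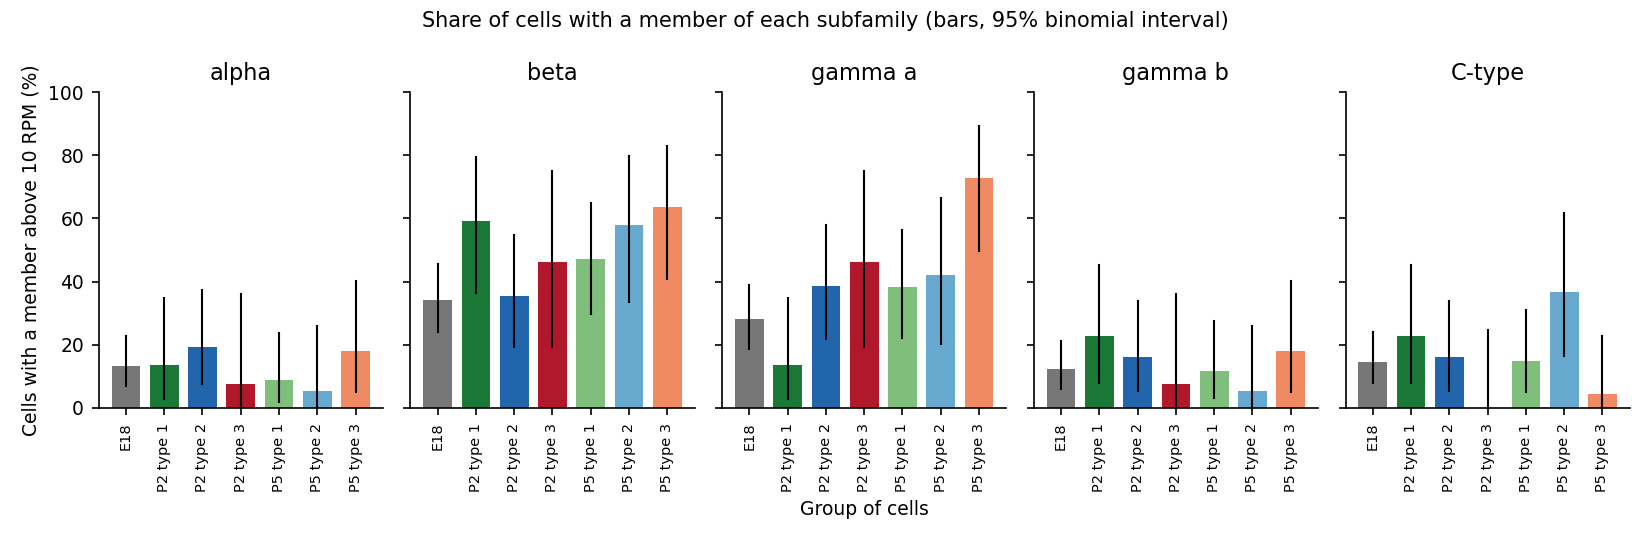
Percent of cells with at least 1 member above 10 RPM (bars) with the exact 95% binomial interval (lines), by subfamily (panels) and group (bars within a panel). Gamma a genes reach 72.7% in P5 type 3 INs, and C-type genes 36.8% in P5 type 2 INs against 0% in P2 type 3 INs.

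Among the beta genes, Pcdhb22 led with 42 cells and was seen in a larger share of the later cells: 8 of 82 E18 cells (9.76%), 15 of 66 at P2 (22.7%) and 19 of 75 at P5 (25.3%), with counting intervals of 4.31% to 18.3% and 16.0% to 36.7% at E18 and P5. Within sets B, C and D its share went from 6.25% to 20%, from 33.3% to 23.5% and from 8.00% to 27.9%, so set C had the opposite order. Pcdhb17, next with 18 cells, was above 10 RPM in 10 E18 cells at 21.1 to 945 RPM, in 2 P2 cells at 15.6 and 29.9 RPM and in 6 P5 cells at 17.8 to 174.9 RPM. Of the 10 E18 cells 9 were outside those with excitatory neuron markers. Pcdhb7, with 12 cells, passed in 3 E18 cells at 212.1, 946 and 1445 RPM, in 4 P2 cells at 10.5 to 490 RPM and in 5 P5 cells at 28.6 to 186.7 RPM, so the ages overlapped. Of the other 19 beta genes, Pcdhb1 had no reads and 18 passed in 1 to 10 cells.

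Gamma a genes were led by Pcdhga12, whose share above 10 RPM was 11.0% at E18 (5.14% to 19.8%), 21.2% at P2 and 33.3% at P5 (22.9% to 45.2%). Its share was higher at P5 than at E18 within each shared set, from 6.25% to 13.3% in B, from 22.2% to 47.1% in C and from 16.0% to 34.9% in D. Its median over cells was 4.76 RPM at E18, 4.20, 3.87 and 9.19 in P2 types 1 to 3 and 6.74, 6.35 and 10.6 in P5 types 1 to 3, so both type 3 groups had the highest medians. Its pooled RPM, which a few high cells can set, had another order: 13.5, 32.3 and 10.1 in P2 types 1 to 3 and 9.01, 29.1 and 16.6 in P5 types 1 to 3. The type 3 groups also had the lowest share of read pairs on genes, with medians of 44.4% at P2 and 32.1% at P5, and the part of that in the level was not tested. With read pairs on genes as library size the medians of Pcdhga12 were 8.30, 8.07 and 17.9 at P2 and 11.9, 9.97 and 31.98 at P5, with the same group highest at each age. Pcdhb22 had medians of 3.18, 1.13 and 2.61 RPM in P2 types 1 to 3 and of 2.32, 3.47 and 5.01 in P5 types 1 to 3.

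Pcdhga7 passed 10 RPM in 1 E18 cell at 48.9 RPM and in 11 postnatal cells, 5 at P2 and 6 at P5. These were 4 type 2 and 1 type 3 INs at P2, at 11.6 to 190.97 RPM, and 1 type 1, 1 type 2 and 4 type 3 INs at P5, at 24.2 to 391 RPM. Type 1 INs at P2 had no Pcdhga7 read pair in 22 cells. Pcdhga6 followed with 9 cells, 3 of them at E18. Pcdhga10 had no reads, and the other 8 gamma a genes passed in 1 to 4 cells each.

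**Figure D5:**
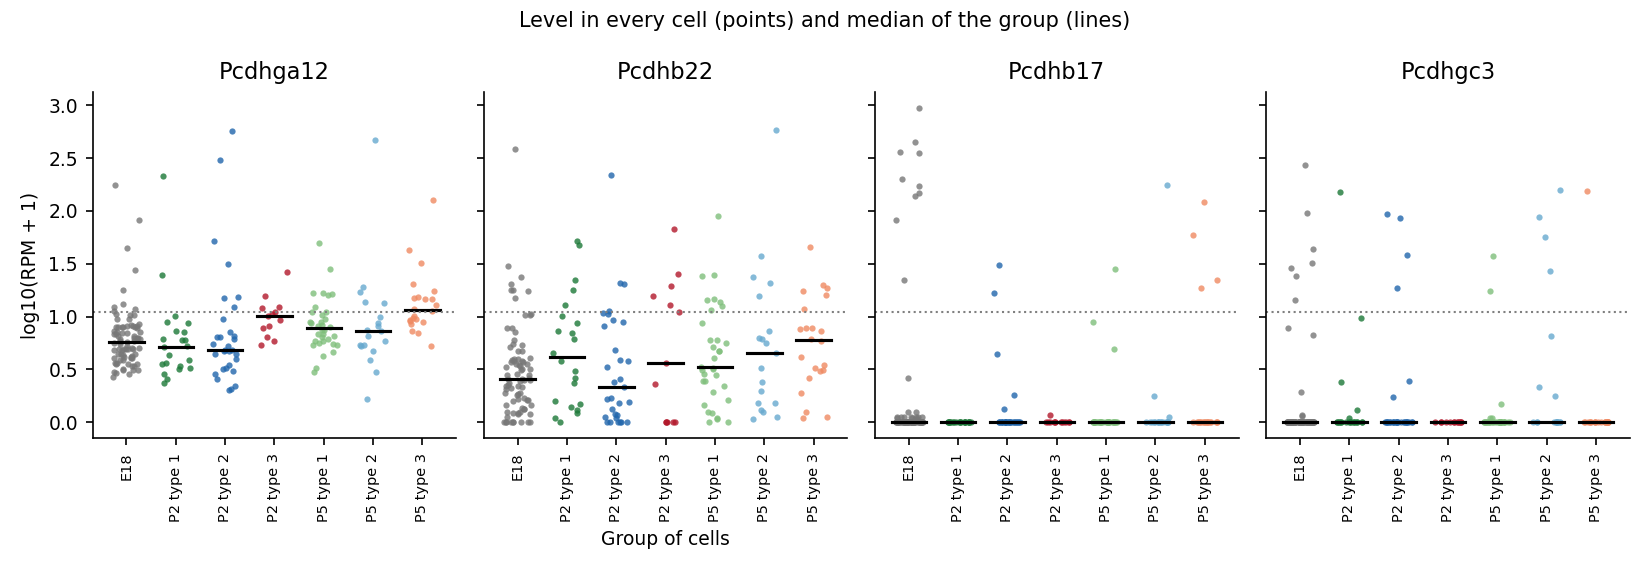
Level of Pcdhga12, Pcdhb22, Pcdhb17 and Pcdhgc3 in every cell (points) as log10(RPM + 1), with the median of each group as a line and the 10 RPM threshold dotted. Pcdhga12 varies around the threshold in all groups, with medians from 3.87 to 10.6 RPM, whereas Pcdhb17 and Pcdhgc3 are at 0 in most cells and far above the threshold in a few.

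The alpha and gamma b genes were sparse. An alpha gene other than the C-type passed 10 RPM in 29 cells (13.0%), from 5.26% of P5 type 2 to 19.4% of P2 type 2 INs. Pcdha5 was seen in 6 cells at 29.3 to 121.5 RPM, 3 at E18, 2 in P2 type 2 and 1 in P5 type 3. Pcdha8 was seen in 5 cells at 190 to 453 RPM, 3 at E18 and 1 in type 3 INs of each postnatal age. Pcdha9 was seen in 5 cells at 21.0 to 255 RPM, 1 in each of E18, P2 types 1 and 2 and P5 types 1 and 2. Pcdha1 and Pcdha4 had no reads, and the other 7 alpha genes passed in 1 to 4 cells. A gamma b gene passed in 30 cells (13.5%), led by Pcdhgb4 with 9, Pcdhgb7 with 7, and Pcdhgb1 and Pcdhgb6 with 5 each. The other 3 gamma b genes passed in 1 to 4 cells.

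C-type genes were above 10 RPM in a minority of these INs. A value at or below the threshold is no sign of absence, since the interneuron marker Gad1 passed it in 75.8% of cells and the cohesin subunit Rad21 in 27.4%, and with at least 1 read pair a C-type gene was found in 18.2% to 57.9% of the cells of a group. A C-type gene passed 10 RPM in 35 cells (15.7%, 11.2% to 21.1%), in 14.6% at E18 (7.80% to 24.2%), 15.2% at P2 (7.51% to 26.1%) and 17.3% at P5 (9.57% to 27.8%), so the ages overlapped. In 24 of the 35 cells another member was present too, and 11 cells had C-type genes only. Pcdhgc3, which is known to bind Axin1, was the most frequent, in 19 cells at 13.3 to 270 RPM with a median of 42.6. It was seen in 7 E18 cells, 5 P2 cells and 7 P5 cells, and its pooled RPM was 6.19, 6.11 and 6.23, all within the counting intervals of each other. Pcdhgc4, a member known to be needed for neuron survival, passed in 8 cells at 23.8 to 333 RPM, 3 at E18, 1 at P2 and 4 at P5. Pcdhac2 passed in 6 cells at 13.2 to 587 RPM, Pcdhac1 in 4 cells at 23.2 to 240 RPM and Pcdhgc5 in 2 cells at 43.3 and 100.6 RPM.

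Across types, C-type genes were most frequent in P5 type 2 INs, in 7 of 19 cells (36.8%, 16.3% to 61.6%). They were seen in 5 of 34 P5 type 1 INs (14.7%, 4.95% to 31.1%) and in 1 of 22 type 3 INs (4.55%, 0.115% to 22.8%). At P2 a C-type gene was seen in 5 of 22, 5 of 31 and 0 of 13 INs of types 1 to 3, and 0 of 13 allows a share of up to 23.1% by 3 counts of the total (24.7% by the exact interval). The intervals overlapped between all types of an age. All 7 of the P5 type 2 cells were in set D, where types 1 to 3 hold 12, 14 and 17 cells and had shares of 33.3%, 50% and 5.88%, whereas sets B and C together gave 1 C-type cell among 22 type 1 and 0 among 10 cells of types 2 and 3. Of the 4 P5 type 2 INs with astrocyte markers 1 had a C-type gene, against 6 of the other 15, and at E18 a C-type gene was seen in 4 of 12 cells with excitatory markers against 8 of 70.

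Between ages, the folds compared pooled RPM, the summed read pairs of a group over its summed mapped read pairs, with 1 RPM added to each. A gene entered when 5% or more of the cells on either side had it above 10 RPM, and it was counted as higher or lower from a log2 fold of 1. A sparse gene enters only through the side where it is high, so the counts of members describe these cells and are no evidence on the family. From E18 to P2, 7 members entered, 3 were higher and 2 lower, where 12.7% of the 10055 genes were higher and 23.1% lower. The median fold was 0.26 for these members and -0.22 for all genes. Over all 58 members, 51 of which did not enter, the share of cells above 10 RPM was 0.467 percentage points higher at P2 on average. Over genes that entered, the mean difference was 3.46 points for the 7 members and -5.90 points for all genes.

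The 3 members counted as higher at P2 were gamma genes and the 2 counted as lower beta genes, but this holds only for members that passed the filter. Below it, the beta genes Pcdhb14 (27.5 against 0.389 RPM, 2 and 0 cells above 10 RPM), Pcdhb4 (14.8 against 0.0697 RPM, 3 and 0 cells) and Pcdhb8 (9.37 against 0.0114 RPM, 3 and 0 cells) had more pooled RPM at P2. Pcdhga7 had 6.95 RPM at P2 (5 of 66 cells above 10 RPM) against 0.692 at E18 (1 of 82), a log2 fold of 2.23. Pcdhga12 had 22.4 against 8.39 RPM (14 and 9 cells), a log2 fold of 1.32. Pcdhgb7 had 4.83 against 1.46 RPM (4 and 3 cells), a log2 fold of 1.25 that was 0.28 without the highest cell of each side. Pcdhb17 had 0.773 RPM at P2 against 33.01 at E18 (2 and 10 cells), a log2 fold of -4.26, and of -4.03 without the highest cells. Pcdhb7 had 9.59 against 40.8 RPM (4 and 3 cells above 10 RPM), a log2 fold of -1.98.

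From E18 to P5, 10 members entered, 3 were higher and 2 lower, where 13.5% of 10588 genes were higher and 20.1% lower. The median fold was 0.90 for these members and -0.15 for all genes. The average share of cells over all 58 members, 48 of which did not enter, was 0.992 percentage points higher at P5. Over genes that entered, it was 5.61 points higher for the 10 members and 1.83 points lower for all genes. Without the cells that had markers of another type, 5 of the 10 members that then entered were higher and 3 lower. Pcdhga7 had 11.6 RPM at P5 (6 of 75 cells) against 0.692, a log2 fold of 2.89. Pcdhgb4 had 7.03 against 1.16 RPM (5 and 1 cells), a log2 fold of 1.89 that was 0.47 without the highest cells. Pcdhb11 had 12.9 against 4.74 RPM (5 and 3 cells), a log2 fold of 1.27. Pcdhb17 had 5.25 against 33.01 RPM (6 and 10 cells), a log2 fold of -2.44, and Pcdhb7 6.86 against 40.8 RPM (5 and 3 cells), one of -2.41.

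Only part of these age differences held in each library set. Pcdhga7 was higher at P5 in set B (0.0106 and 4.57 RPM), in set C (0 read pairs at E18, 2.58 RPM at P5) and in set D (2.25 and 18.1 RPM). Pcdhb11 was also higher at P5 in all 3 sets, with 15.4 RPM at E18 and 21.2 at P5 in set D. Pcdhb17 was lower at P5 in set B (46.7 and 0.642 RPM) and set D (14.4 and 5.09), but not in set C (8.18 and 9.81). Pcdhb7 was lower in set B alone (62.97 and 1.54 RPM), with 10.9 and 11.8 RPM in set D and under 0.02 RPM at both ages in set C. Pcdhgb4 was higher at P5 in sets B and D and lower in set C (0.929 and 0.244 RPM). The types differ in their shares of the sets at P5, and their part in these values was not tested.

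Between the types of an age, each type was compared with the other types of that age, by the same measure. In P2 type 1 INs 12 members entered, 6 were higher and 2 lower, where 20.9% of 9266 genes were higher and 33.4% lower. The median was 1.09 for members and -0.27 for all genes. Pcdhb14 had 74.3 against 0.863 RPM, a log2 fold of 5.34 carried by 2 of 22 cells at 164.6 and 1522 RPM. Pcdhb4 had 40.5 against 0.162 RPM, 5.16, in 3 cells at 17.8, 71.8 and 867 RPM. Pcdhb20 had 12.1 against 0.121 RPM, 3.55, in 2 cells at 43.3 and 229 RPM. Pcdhga7 had 0 read pairs in type 1 and 10.9 RPM in the others, at least 804-fold lower against a floor of 3 counts over the group, with 0 of 22 and 5 of 44 cells above 10 RPM. Pcdhb7 was lower by 1.40 and changed sign without the highest cells, to 1.08.

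In P2 type 2 INs 18 members entered, 8 were higher and 6 lower, where 31.1% of 10490 genes were higher and 21.5% lower. The median was 0.24 for members and 0.22 for all genes. Pcdhga2 had 21.3 against 0.0525 RPM, a log2 fold of 4.4, in 2 of 31 cells at 74.3 and 564 RPM. Pcdhgb6 had 12.5 against 0.135 RPM, 3.57, in 2 cells at 62.5 and 263 RPM. Pcdha5 had 4.65 RPM against 0 read pairs, at least 473-fold higher, in 2 cells at 29.3 and 102.7 RPM. The lowest were Pcdhb14, Pcdhb4 and Pcdhb20, at -4.80, -4.66 and -3.09, and the type 1 cells in which they were high stand on the other side of this comparison, so both results rest on the same cells.

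In P2 type 3 INs 13 members entered, 2 were higher and 7 lower, where 20.8% of 10666 genes were higher and 49.4% lower. The median was -1.19 for members and -0.97 for all genes, so both sat below 0. Both higher members, Pcdha8 and Pcdhga6, rested on 1 of 13 cells, at 190 and 323 RPM. Pcdha8 had 0 read pairs in the other types and was at least 2710-fold higher, and Pcdhga6 had a log2 fold of 2.23 that was -0.08 without the highest cells. Pcdhb4, Pcdhac1 and Pcdhb8 had 0 read pairs in type 3 and 17.2, 11.0 and 10.9 RPM in the others, at least 477-fold, 307-fold and 302-fold lower, in 3 of 53 cells each.

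In P5 type 1 INs 13 members entered, 2 were higher and 8 lower, where 25.2% of 10553 genes were higher and 24.3% lower. Within sets B, C and D alone, 17, 14 and 21 members entered. Of these 5, 3 and 11 were higher and 8, 10 and 8 lower, so set D had the opposite balance. The median was -1.26 for members and 0.08 for all genes, and the summed RPM of the family was 120 in type 1 INs against 255 in the others. Pcdhb4 was lower by 2.76 (0.286 against 7.69 RPM, 0 of 34 and 3 of 41 cells), Pcdhb17 by 2.45 (0.913 against 9.45, 1 and 5 cells) and Pcdhgc3 by 2.44 (1.23 against 11.1, 2 and 5 cells). These 3 stayed below -1 without the highest cells. Pcdhgb4 was higher by 2.23 through 1 cell at 319 RPM and was -0.52 without it, and Pcdhb16 was higher by 1.86 through 2 cells at 56.6 and 92.6 RPM.

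In P5 type 2 INs 24 members entered, 16 were higher and 5 lower, where 29.3% of 12421 genes were higher and 20.1% lower. The median was 1.30 for members and 0.22 for all genes. Since 1 of 19 cells is enough to pass the 5% filter here, 10 of the 21 members past the fold had at most 1 cell above 10 RPM on their high side, and 6 of the 21 stayed past it without the highest cell of each side. Pcdhga4 led with 8.86 RPM in type 2 against 0.00385 in the others, from 1635 and 2 read pairs, a 2303-fold ratio with a counting interval of 637 to 19033, all of it in 1 cell at 247 RPM. Pcdhb4 had a log2 fold of 3.25 through 2 cells at 41.2 and 257 RPM, and Pcdha9 one of 3.21 through 1 cell at 255 RPM. The C-type gene Pcdhgc3 was more even, with 16.6 against 2.55 RPM and 4 of 19 against 3 of 56 cells, a log2 fold of 2.31 that was 2.39 without the highest cells. Pcdhgc4 had 23.6 against 4.21 RPM and 3 against 1 cells, 2.24, and 1.58 without the highest cells. Pcdhga6, Pcdhga7 and Pcdhb18 were the lowest, at -2.84, -2.79 and -2.64.

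In P5 type 3 INs 15 members entered, 6 were higher and 7 lower, where 16.3% of 10486 genes were higher and 45.9% lower. Without the cells that had markers of another type, more members entered and more were higher, as given in the closing section. The median was -0.29 for members and -0.78 for all genes. Pcdhb8 had 27.3 against 0.0792 RPM, a log2 fold of 4.72, in 2 of 22 cells at 233 and 257 RPM. Pcdhb18 had 19.8 against 0.490 RPM, 3.8, and Pcdhga6 had 17.3 against 0.631 RPM, 3.49, each mostly from 1 cell and at 0.69 and 0.82 without the highest cells. Pcdhb11 was lower by 3.6, Pcdhgc4 by 3.11 and Pcdhb14 by 2.65. Of the 13 members past the fold 9 stayed past it without the highest cells, and Pcdhga7, at 22.7 against 7.91 RPM with 4 of 22 and 2 of 53 cells, went from 1.41 to 2.98.

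In the same type at both ages, 4 members were higher past the fold and 2 lower, and the share of all genes that did so was not computed. Higher at both were Pcdhgb4 in type 1 INs (1.19 at P2 and 2.23 at P5), Pcdhga12 (1.29 and 1.26) and Pcdhb17 (1.34 and 1.17) in type 2 INs and Pcdhga6 in type 3 INs (2.23 and 3.49). None of these 4 stayed past the fold at both ages without the highest cell of each side, where Pcdhga12 had 1.24 and -0.47. Lower at both were Pcdhb7 in type 1 INs and Pcdhga6 in type 2 INs, and Pcdhga6 stayed past the fold without the highest cells, at -2.42 and -1.03. By the median over cells Pcdhga12 was highest in type 3 INs, where its folds were -1.19 at P2 and 0.05 at P5. Pcdhb4 was high in type 1 INs at P2 and in type 2 INs at P5, while Pcdhb8 was above 10 RPM in 2 type 2 and 1 type 1 INs at P2 and in 2 type 3 INs at P5. Pcdhga7 was seen in 0 type 1 INs at P2 and in 1 at P5, at 391 RPM. Changing the library size to read pairs on genes, to edgeR TMM factors or to DESeq2 size factors took up to 3 of the members counted above below the fold: 3 in P5 type 2 INs with read pairs on genes, where 13 instead of 16 were higher, 1 there with TMM factors, 2 in P5 type 3 INs with read pairs on genes and 1 with either set of factors, and 1 in P2 type 3 INs with either set of factors. It moved the median of all genes by -0.30 to 0.81, and in P5 against E18 it raised the number of higher members from 3 to 5 or 6. With read pairs on genes, higher genes made up 45.8% instead of 35.4% of all genes past the fold in P2 against E18 and 51.3% instead of 40.2% in P5 against E18. In P2 type 3 INs DESeq2 factors moved this share from 29.6% to 44.8% and TMM factors to 41.4%, and in P5 type 3 INs read pairs on genes, TMM and DESeq2 factors moved it from 26.2% to 45.7%, 38.7% and 38.3%. In P5 type 2 INs read pairs on genes moved it from 59.3% to 49.3%.

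Genes that act on promoter choice differed widely in their share of cells above 10 RPM, and a value at or below it is no sign of absence. All 21 genes of a list of promoter choice and silencing were in the table, above 10 RPM in 2.24% to 68.6% of cells with a median of 32.3%, while Pcdhga12, the most frequent member, passed in 21.5%. From E18 to P5, 20 of them entered, 2 were higher and 1 lower, where 13.5% of all genes were higher and 20.1% lower, with a median log2 fold of -0.30 beside -0.15 for all genes. Tet2, which oxidises methylated cytosine, led with 68.6% of cells, followed by Wapl, which releases cohesin from DNA, with 63.7% and the cohesin subunit Smc3 with 60.1%. The cohesin loader Nipbl was higher at P5 (175.5 against 65.2 RPM, 1.42), as was the DNA methyltransferase Dnmt3a (113.9 against 50.2 RPM, 1.17), which passed 10 RPM in 62.7% of P5 and 30.5% of E18 cells. Zfp143, a factor at CTCF sites, had 17.96 RPM at E18, 100.1 at P2 and 3.94 at P5, a log2 fold over E18 of 2.41 at P2 and of -1.94 at P5. Ctcf passed in 41.5% of E18, 25.8% of P2 and 28.0% of P5 cells. Dnmt3b, a methyltransferase known to set the methylation of these promoters in the embryo, passed in 1, 1 and 3 cells.

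Of 16 genes of signalling and processing downstream of the family, 13 entered from E18 to P5, 0 were higher and 2 lower, with a median of -0.48, and 2 of 13 is near the share of lower genes over all genes (20.1%). Marcks, an actin-linked membrane protein, was above 10 RPM in 97.8% of cells, and the kinase Fyn and the WAVE complex member Wasf1 in 47.98% each. Axin1 was lower at P5 (8.50 against 41.7 RPM, -2.17), as was Cyfip2, another WAVE complex member (70.4 against 183.7 RPM, -1.37). Of the 12 non-clustered protocadherins, single genes elsewhere in the genome, 10 entered, 4 were higher and 1 lower, with a median of 0.83, where 13.5% of all genes were higher and 20.1% lower. Pcdh15, Pcdh20, Pcdh17 and Pcdh18 were higher at P5, by 4.63, 3.24, 1.55 and 1.54, and Pcdh8 was lower by 1.60. In the same comparison the 4 astrocyte or radial glia markers that entered were all higher at P5 (median 2.31) and the 5 excitatory neuron markers all lower (median -3.35), and the part of such cells in these folds was not tested. Pcdh17, Pcdh7 and Pcdh9 passed 10 RPM in 33.2%, 30.9% and 30.04% of cells, each above the 21.5% of Pcdhga12, the most frequent clustered member. The mean number of non-clustered members per cell was 1.55 at E18, 1.70 at P2 and 2.35 at P5, out of 12 genes, against 1.30, 1.58 and 1.88 of the 58 clustered ones.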

How the data were processed

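The deposited table of counts (read pairs per gene and cell) was used with the deposited coefficient that scales each cell to RPM. The authors aligned with TopHat2 to GRCm38 (Ensembl v78 annotation), counted with HTSeq 0.6.1 and divided by mapped reads for RPM. Whether counting used strand is not given in the sources used here. Types are the authors' own. Names came from GENCODE vM21 (GRCm38).

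The members and gene lists were chosen with earlier results of these data known. RPM was the count times the coefficient, and above 10 RPM counted as expressed. Pooled RPM, shares with exact binomial 95% intervals, and log2 folds of pooled RPM with 1 RPM added were computed. A gene entered a comparison at 10 RPM in 5% of the cells of either side. Named members are the 3 highest and 3 lowest past a log2 fold of 1, the 3 most frequent and the unseen ones of each subfamily, and all C-type genes, and of each list the 3 most frequent and those past the fold. Alternatives changed threshold, depth, library size, filter, pseudocount, library set and members. The scripts, tested on simulated data, ran in Python 3.11.15 (scipy 1.17.1, numpy 2.4.6, pandas 2.3.3, matplotlib 3.10.9) and R 4.3.3 (edgeR 4.0.16 for TMM, DESeq2 1.42.0 for size factors). Doublets were not called.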

Additional observations from a re-analysis of the deposited data

Results flagged for a closer look

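Genes of the locus that are no members, and are counted in the report only among all genes, were also above 10 RPM in some cells. The antisense gene Gm37446, which overlaps Pcdhb12, passed in 14 cells, 11 of them at P5, and in 0 of these together with Pcdhb12. Gm26672, which lies antisense to Pcdhga10, Pcdhgb7, Pcdhga11 and Pcdhga12, passed in 7 cells, 1 of them shared with Pcdhgb7 and 1 with Pcdhga12. BC037039, antisense to Pcdhgc3, passed in 2 cells, 0 of them shared with Pcdhgc3. Gm10544 passed in 8 cells and Gm10545 in 2, both on the minus strand of the alpha cluster, and the 1 cell with ENSMUSG00000102206, the member both overlap, was shared with each of them. Gm10545 also overlaps Pcdha12, with 0 of 2 cells shared. The pseudogenes Gm19035, Gm18529 and Gm6756 passed in 9, 4 and 1 cells, and the 4 cells of Gm18529 were all at P2.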

How the results depend on the processing

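No paired test was made, since each age is 1 pool whose cell numbers pair nothing. E18 and P5 were compared within each library set that holds both. Over 31 results 310 alternative values were computed, and most moved by less than the spread between cells, the counting interval or 1.5 times. The cause of the moves below was not tested, save where fewer cells or genes entered. Chosen after seeing the data were 100 RPM, thinning for the C-type share and leaving out Pcdhga12 and Pcdhb22. Thinning every cell to the depth of the shallowest moved the mean number of members little (1.32 at E18, 2.45 in P5 type 3), whereas the number of cells limits the folds of sparse members, which 1 cell can carry.

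The mean number of members per cell at 5 RPM was 2.05 at E18, 2.00 in P2 type 3 and 2.29 in P5 type 1. At 20 RPM it was 1.00 in P2 type 2, 0.538 in P2 type 3, 0.912 in P5 type 1 and 1.5 in P5 type 3. At 100 RPM it was 0.50 at E18, 0.773, 0.452 and 0.231 in P2 types 1 to 3 and 0.265, 0.789 and 0.909 in P5 types 1 to 3. With at least 1 read pair it was 6.72 at E18, 7.14, 6.29 and 5.38 in P2 types 1 to 3 and 6.32, 7.79 and 7.23 in P5 types 1 to 3, and the share of cells with a C-type gene was 31.7% at E18, 54.5% and 38.7% in P2 types 1 and 2 and 35.3% in P5 type 1. With read pairs on genes as library size the mean was 2.77 and 2.08 in P2 types 1 and 3 and 2.26 in P5 type 1. Without Pcdhga12 and Pcdhb22 it was 0.308 in P2 type 3 and 0.912 in P5 type 1. P5 type 3 INs had the highest mean in every setting but 20 RPM and at least 1 read pair, where P5 type 2 INs did.

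In library set C alone the mean at E18 was 2.44, and C-type genes were seen in 33.3% of E18 cells and 0% of each P5 type. In set B alone they were seen in 0% of P5 types 2 and 3, and in set D alone in 33.3% of P5 type 1. From E18 to P5, 8 members were higher and 5 lower of 21 that entered in set B, 6 and 10 of 23 in set C, and 7 and 4 of 15 in set D. In P5 type 1, 5 were higher and 8 lower of 17 in set B, and 11 and 8 of 21 in set D. In P5 type 2, 3 were higher and 12 lower of 17 in set B, and 5 and 8 of 14 in set C. The shares of all genes past the fold are not given for single sets.

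Without the filter 54 members entered between ages, and between types 50 at P2 and 52 at P5. Then 16 members were higher and 14 lower in P2 against E18, and 12 and 14 in P5 against E18. There were 14 higher and 9 lower in P2 type 1, 15 lower in P2 type 2 and 22 lower in P2 type 3. There were 8 higher and 25 lower in P5 type 1, 16 lower in P5 type 2 and 16 higher and 17 lower in P5 type 3. With a filter of 10% of the cells only 2 to 8 members entered a comparison. Of these, 1 was higher and 1 lower at P2, 0 and 1 at P5, 1 and 1 in P2 type 1, 2 and 0 in P2 type 2, 0 and 1 in P2 type 3, 0 and 4 in P5 type 1, 6 and 0 in P5 type 2 and 2 and 2 in P5 type 3. The shares of all genes past the fold are not given for these filters. With the mean of log2(RPM + 1) per cell, 1 member was higher in P5 type 2 and 1 in P5 type 3, and 0 were higher or lower in every other comparison and direction.

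With a pseudocount of 0.1 RPM, 5 members were higher in P5 against E18. With 5 RPM, 1 was higher there, 3 higher and 1 lower in P2 type 1, 1 higher in P5 type 1, 10 higher in P5 type 2 and 3 lower in P5 type 3. In P5 against E18, 6 were higher per read pairs on genes, 6 with TMM and 5 with DESeq2 factors, which gave 4 higher in P2 type 3. Without cells with markers of another type, 5 of 10 were higher in P5 against E18 and 17 were higher in P5 type 3, where more members entered. Without the highest cell of each side, 0 were higher in P2 type 3 and 1 in P5 type 1, and 5 were higher and 3 lower in P5 type 2. The shares of all genes past the fold are not given for the pseudocounts or without these cells.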

Other observations

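Of the ordinary genes within and beside the locus, Taf7, a subunit of the general transcription factor TFIID that lies between the beta and gamma clusters, was above 10 RPM in 57 cells (27 at E18, 9 at P2, 21 at P5). Slc25a2, a mitochondrial carrier gene beside it, passed in 4 cells. Diaph1, an actin regulator just beyond the gamma cluster, passed in 17 cells, of which 8 were P5, 5 P2 and 4 E18 cells.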
